A study of Mus musculus with 5 samples.

Results

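The genes studied here encode the histones, and they were read from 36 probe sets for 25 genes among the 45037 non-control probe sets of the array. A probe set was a member if its annotation gave exactly 1 gene symbol and that symbol was a histone symbol of the H1, H2A, H2B, H3 or H4 families, with the MHC genes left out. The rule reads annotation alone and uses no signal. 15 probe sets for 10 genes belonged to the replication-dependent genes, 10 for 6 genes to the replacement histones, 10 for 8 genes to histones of germ cells, and 1 to H2ax. No member was an H4 probe set, because all H4 probe sets of the array were annotated to several genes. No probe set of H1f0 or of the macroH2A genes was a member either, so these replacement histones are not covered.

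The samples were RNA from mouse brain on 5 Affymetrix mouse expression arrays. 2 arrays held RNA eluted from deiminated MA-Brent-1 after binding in vitro, 2 held RNA eluted from the non-deiminated protein, and 1 held the initial RNA with no binding, called input here. The protein is an mRNA export factor of the REF/Aly family, and the titles of 1 deiminated and 1 non-deiminated sample name it REFP2. The labels give no age, sex or strain, no genotype and no agent used for the deimination, which is the conversion of arginine to citrulline. 1 title of the non-deiminated group names a biological repeat, and nothing says whether the remaining arrays came from separate animals or bindings. The p-values below can thus speak only for the scatter among these arrays, and that may be technical. Input was a single array, and its scatter was taken to equal that of the bound arrays.

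Histones are the proteins around which DNA is wound, with H2A, H2B, H3 and H4 forming the core of the nucleosome and H1 binding the linker DNA. The replication-dependent genes lie in clusters, mostly have no introns and are transcribed mainly during DNA synthesis. Their mRNAs mostly end in a stem-loop held by the protein SLBP in place of a poly(A) tail. Among the members here, the annotated genes H2bc22 and H2bc21 span 14079 and 2667 bases, and the transcript forms of members were not examined. The replacement histones are encoded by single genes outside the clusters, are made throughout the cell cycle and give polyadenylated mRNA, so they are the main source of new histone in cells that no longer divide, such as neurons. REF/Aly proteins bind mRNA and pass it to the export receptor Nxf1, and intronless histone mRNA has served as a model for export without splicing. The labels name the standard Affymetrix labelling protocol, which for such arrays copies RNA from its poly(A) tail, and the part of this step in the values below was not tested.

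The promoters of 5 members are shown to set clustered genes beside a replacement gene. H1f2 and H1f4 are linker histone genes, H2aw and H2bc18 encode core histones of the clusters, and H2az1 is a replacement gene. Each stretch is the 160 bases before the RefSeq transcription start in GRCm38.p6, 5′ to 3′ on the strand of the gene. Capitals mark ATTTGCAT (the octamer bound by Oct factors), TATAAA (the box bound by TBP), CCAAT (the box bound by NF-Y) and AAACACA (the AC box of H1 promoters), each searched on both strands.
H1f2 (chr13:23738647-23738806, plus strand): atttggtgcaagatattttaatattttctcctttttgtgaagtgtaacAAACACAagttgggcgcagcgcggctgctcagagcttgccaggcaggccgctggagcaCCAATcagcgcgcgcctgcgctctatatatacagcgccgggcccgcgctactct
H1f4 (chr13:23622559-23622718, minus strand): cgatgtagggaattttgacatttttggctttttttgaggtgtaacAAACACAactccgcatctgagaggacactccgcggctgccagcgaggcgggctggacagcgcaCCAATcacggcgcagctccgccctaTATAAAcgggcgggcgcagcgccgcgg
H2aw (chr11:58954525-58954684, plus strand): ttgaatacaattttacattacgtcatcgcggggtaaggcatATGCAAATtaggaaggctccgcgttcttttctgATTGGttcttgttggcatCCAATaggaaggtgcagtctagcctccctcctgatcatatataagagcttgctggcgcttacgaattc
H2bc18 (chr3:96269540-96269699, plus strand): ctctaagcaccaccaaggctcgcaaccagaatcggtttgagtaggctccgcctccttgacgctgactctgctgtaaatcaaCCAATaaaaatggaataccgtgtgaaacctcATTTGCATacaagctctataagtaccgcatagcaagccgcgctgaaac
H2az1 (chr3:137864327-137864486, plus strand): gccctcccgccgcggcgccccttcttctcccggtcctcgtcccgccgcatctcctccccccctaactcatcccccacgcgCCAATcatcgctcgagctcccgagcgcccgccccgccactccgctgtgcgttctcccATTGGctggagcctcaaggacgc
In the 250 bases before the start, CCAAT was found in all 8 replication-dependent genes that had a promoter in the table, in 5 of 6 replacement genes and in 5 of 8 germ cell genes, against 33.8% of 32851 mouse promoters. TATAAA was found in 4 of 8 replication-dependent, 1 of 6 replacement and 1 of 8 germ cell genes, against 12.4% of all promoters. The octamer was present in 2 of 8 replication-dependent genes, which were H2bc18 and H2aw, in 1 of 6 replacement genes and in 0 of 8 germ cell genes, against 1.6%. AAACACA was found in 2 of 8 replication-dependent genes, which were H1f2 and H1f4, in 1 of 6 replacement genes and in 1 of 8 germ cell genes, against 6.25%. None of the 4 motifs contains another, and a match is only a run of letters. A promoter was found for 22 of the 25 genes.

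Values are MAS5 signal intensities on a linear scale, in which the submitters had set the trimmed mean of every array to 150. Over all probe sets the signal had a median of 29.8 and 37.5 with deiminated protein, 30.5 and 41.4 with non-deiminated protein and 102 in input. The hybridisation controls averaged 10.60 and 12.60 log2 with deiminated protein, 10.09 and 13.04 with non-deiminated protein and 17.04 in input. Differences were taken on log2(signal + 4.18), a scale that understates the change of dim probe sets, and a probe set is called where limma gave a Benjamini-Hochberg adjusted p under 0.05. Centring each array on its median moved the median difference from input over all tested probe sets to 1.29 for deiminated and 1.23 for non-deiminated, against -0.21 for deiminated and -0.19 for non-deiminated in the values given here. Scaling to the hybridisation controls moved it further, to 4.31 for deiminated and 4.37 for non-deiminated, and called no probe set. Each direction against input below is therefore relative to the rest of the array. The 9 members called lower for deiminated and the 7 for non-deiminated lay below the median of all tested probe sets in the values as given, under quantile normalisation, under median centring and under scaling to the hybridisation controls, although the last put them above 0. The 7 members called higher for deiminated lay above that median under all of these, and 7 of the 8 for non-deiminated did, the exception being H2az1 1438092_x_at under quantile normalisation. Median centring shifts all probe sets of an array alike, and control scaling nearly so, and these members were picked as called. Their side of the median was thus largely fixed beforehand and is no separate support for the calls. The defining markers of brain were present. 12 of 15 neuronal markers were called higher in deiminated than in input and 11 of 15 in non-deiminated, with none lower. Over all tested probe sets 24.9% were called higher for deiminated and 24.7% for non-deiminated. For deiminated against input 8 of 10 astrocyte and 5 of 9 oligodendrocyte markers were called higher, with 0 lower. Of 8 microglial markers 2 were called higher and 0 lower. Of 8 endothelial markers 2 were called higher and 3 lower, and of 8 neural progenitor markers 2 higher and 1 lower. Summed neuronal signal was 26820.1 to 31853 on the bound arrays and 13667 on input. Summed photoreceptor signal was 287 to 596 on the bound arrays against 2232 on input, from 18 markers.

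Over the 15 replication-dependent probe sets the median signal was 58.1 and 48.7 with deiminated protein, 73.5 and 40.4 with non-deiminated protein and 137 in input. Over the 10 replacement probe sets it was 226 and 259 with deiminated protein, 245 and 319 with non-deiminated protein and 246 in input. The 10 germ cell probe sets had medians of 2.53 and 9.80 with deiminated protein, 3.44 and 7.70 with non-deiminated protein and 62.7 in input. In rank, the median replacement probe set stood between the 78.9 and the 85.7 percentile of its array, and the germ cell genes lay low on the bound arrays. The median replication-dependent probe set stood at the 62.8 and 55.9 percentile with deiminated protein, 66.3 and 49.3 with non-deiminated protein and 57.3 in input. Its bound ranks thus lay on both sides of its input rank. 21 of the 36 probe sets passed the filter on low signal and were tested: 10 replication-dependent, 9 replacement, the H2ax probe set and 1 of the germ cell group. The filter averaged all arrays, so a probe set dim on the bound arrays could pass through input alone. A lower call of such a probe set is partly a product of the filter, here and in the gene lists below.

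**Figure D1:**
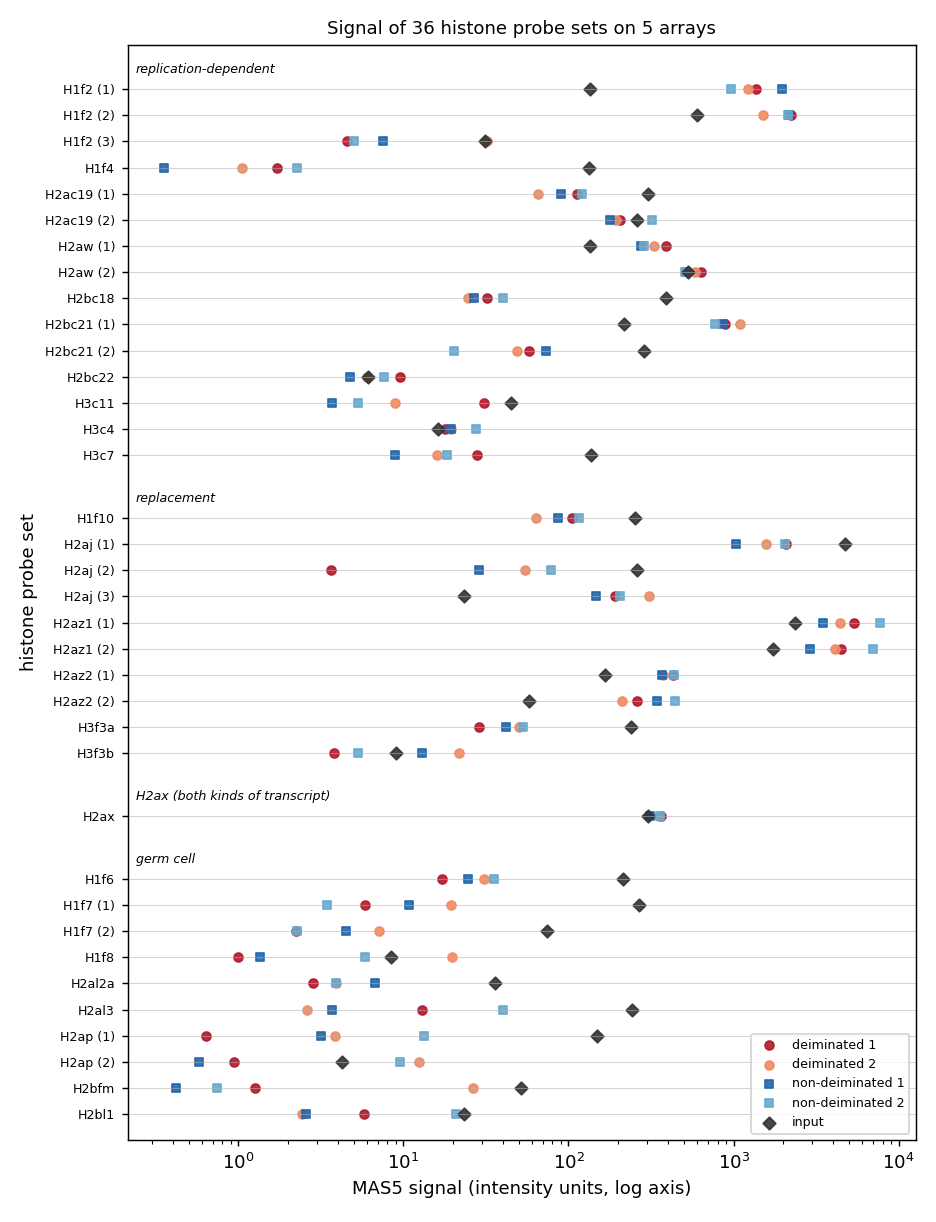
Signal of the 36 histone probe sets on each of the 5 arrays, on a log axis, with 1 point per array and the probe sets grouped by kind. both H2az1 probe sets lie above their input values on all 4 bound arrays, H1f2 and H2bc21 each have a probe set well above its input value on all 4 bound arrays, and the germ cell probe sets lie low on the bound arrays.

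Against input the histones moved both ways. 16 of the 21 tested probe sets were called for deiminated against input, 7 higher and 9 lower, where 51.5% of all 27022 tested probe sets were called, 24.9% higher and 26.6% lower. For non-deiminated against input 15 of 21 were called, 8 higher and 7 lower, where 50.5% of all were called, 24.7% higher and 25.7% lower. These 2 comparisons share the input array. The ratio of 3′ to 5′ signal of the control transcripts also moved with this contrast. For Gapdh it was 21.9 and 31.9 with deiminated protein, 31.7 and 17.4 with non-deiminated protein and 2.71 in input, and for actin it was 51.7 and 45.2 with deiminated protein, 29.8 and 55.6 with non-deiminated protein and 234 in input. Their part in the histone values was not tested. Without the first deiminated array, 10 members were called for deiminated against input. Median centring left 11 called higher and 1 lower in each comparison, the lower one being H2bc18. It also moved the median over all tested probe sets to 1.29 for deiminated and 1.23 for non-deiminated. Higher calls were thus favoured over the whole array, and these counts are no result about the histones alone. Over all 36 members, 11 had all 4 bound arrays above input and 18 had all 4 below it, where 25.2% and 54.7% of all non-control probe sets did so (39.1% and 45.6% of the tested ones).

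The replication-dependent genes split. For deiminated against input 4 of their 10 tested probe sets were called higher and 4 lower, and for non-deiminated against input the counts were also 4 and 4. Of all tested probe sets 24.9% were called higher and 26.6% lower for deiminated, and 24.7% and 25.7% for non-deiminated. A split in both directions was thus also the pattern of the whole array. The median over all 15 of their probe sets was -0.38 log2 for deiminated and -0.12 log2 for non-deiminated, where all non-control probe sets had medians of -0.96 for deiminated and -0.90 for non-deiminated. The probe sets called higher belonged to H1f2, H2bc21 and H2aw, and those called lower to H2bc18, H3c7, H2ac19 and again H2bc21.

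H1f2 encodes the linker histone H1.2, formerly Hist1h1c, one of the main H1 subtypes of differentiated tissue. Its probe set 1416101_a_at read 1358 and 1215 with deiminated protein, 1974 and 969 with non-deiminated protein and 136 in input. All 4 bound arrays were thus far above input, and the bound groups overlapped. The difference from input was 3.20 ± 0.44 log2 (SE; 95% interval 2.25 to 4.16) for deiminated, with a limma adjusted p of 0.000127. For non-deiminated it was 3.31 ± 0.44, with a limma adjusted p of 0.000103. In rank, this probe set stood at the 96.0 and 95.9 percentile of the deiminated arrays, the 97.4 and 94.9 percentile of the non-deiminated arrays and the 57.0 percentile of the input array.

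A further H1f2 probe set, 1436994_a_at, read 2219.5 and 1509 with deiminated protein, 2162 and 2127 with non-deiminated protein and 602 in input. It was also called higher, by 1.60 ± 0.40 log2 for deiminated (limma adjusted p = 0.00637) and 1.83 ± 0.40 for non-deiminated (limma adjusted p = 0.00325). Under quantile normalisation these differences were 0.57 for deiminated and 0.82 for non-deiminated, and neither was called. The third, 1438204_at, was dim, with 4.57 and 32.1 with deiminated protein, 7.51 and 5.03 with non-deiminated protein and 31.3 in input, and was not tested. H1f4, which encodes H1.4 in the same cluster and shares the AC box shown above, had 1.72 and 1.05 with deiminated protein, 0.353 and 2.28 with non-deiminated protein and 134 in input. It fell below the filter, so its differences of -4.63 log2 for deiminated and -4.67 log2 for non-deiminated carry no test.

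H2bc21, formerly Hist2h2be, encodes an H2B form studied in mouse olfactory sensory neurons. Its probe set 1447854_s_at read 888 and 1087 with deiminated protein, 862 and 773 with non-deiminated protein and 216 in input. The difference from input was 2.17 ± 0.37 log2 for deiminated (limma adjusted p = 0.000635) and 1.90 ± 0.37 for non-deiminated (limma adjusted p = 0.00159). The other probe set of the same gene, 1455095_at, moved the opposite way, with 58.1 and 48.7 with deiminated protein, 73.5 and 20.2 with non-deiminated protein and 287 in input. It was called lower by -2.34 ± 0.73 log2 for deiminated (limma adjusted p = 0.0184) and -2.74 ± 0.73 for non-deiminated (limma adjusted p = 0.00921), and was not called under median centring.

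H2aw, formerly Hist3h2a, encodes H2A in a small cluster apart from the main ones. Probe set 1435866_s_at read 388 and 330.1 with deiminated protein, 277 and 288 with non-deiminated protein and 136 in input. It was called higher by 1.37 ± 0.40 log2 for deiminated (limma adjusted p = 0.0132) and 1.03 ± 0.40 for non-deiminated (limma adjusted p = 0.0458). The first call weakened in 3 of the alternative settings and was lost without the first deiminated array. The second call weakened in 6 and was lost with the block for the protein name (limma adjusted p = 0.0975). Its other probe set, 1455712_at, had 639 and 580.2 with deiminated protein, 514 and 507 with non-deiminated protein and 527 in input, and was not called.

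H2bc18, formerly Hist2h2bb and an H2B gene with the octamer shown above, lay far below input. It read 32.3 and 24.8 with deiminated protein, 26.8 and 40.4 with non-deiminated protein and 389 in input. The difference was -3.60 ± 0.69 log2 for deiminated (limma adjusted p = 0.00139) and -3.40 ± 0.69 for non-deiminated (limma adjusted p = 0.00204). It stayed lower and called under quantile normalisation and median centring. Under scaling to the hybridisation controls it was at 1.50 for deiminated and 1.73 for non-deiminated, not called and below the median of all tested probe sets.

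H3c7 encodes the replication-dependent H3. Its signal was 27.9 and 15.9 with deiminated protein, 8.91 and 18.4 with non-deiminated protein and 137 in input. It was called lower by -2.48 ± 0.94 log2 for deiminated (limma adjusted p = 0.0422) and -3.04 ± 0.94 for non-deiminated (limma adjusted p = 0.0184), and was not called under quantile normalisation or median centring. Its mean log2 signal was 4.67 with deiminated and 4.10 with non-deiminated protein against 7.14 in input. Its input signal thus lifted it past the filter, which ties the calls of H3c7 to that selection. H2ac19, an H2A gene formerly named Hist2h2aa2, had 113 and 65.0 with deiminated protein, 89.9 and 120.4 with non-deiminated protein and 303 in input in probe set 1418366_at. That was -1.77 ± 0.53 log2 for deiminated (limma adjusted p = 0.0151) and -1.51 ± 0.53 for non-deiminated (limma adjusted p = 0.0317). The H2ac19 probe set was not called under median centring.

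The remaining replication-dependent values showed no call. The second H2ac19 probe set, 1418367_x_at, read 204 and 195 with deiminated protein, 179 and 322 with non-deiminated protein and 262 in input, so bound arrays lay on both sides of input. H3c11, with 30.6 and 8.95 with deiminated protein, 3.72 and 5.28 with non-deiminated protein and 45.0 in input, was not tested. H3c4 had 17.8 and 19.4 with deiminated protein, 19.3 and 27.5 with non-deiminated protein and 16.3 in input, and H2bc22 had 9.54 and 6.06 with deiminated protein, 4.73 and 7.63 with non-deiminated protein and 6.13 in input. Both are genes of the main cluster, and neither passed the filter.

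The replacement histones also split, by gene and by probe set. For deiminated against input 3 of their 9 tested probe sets were called higher and 4 lower, where 24.9% and 26.6% of all tested probe sets were. For non-deiminated against input 4 were called higher and 2 lower, where 24.7% and 25.7% of all were. Calls in both directions were thus common on the whole array and are not particular to this class. The median over all 10 probe sets was 0.58 log2 for deiminated and 0.54 log2 for non-deiminated. All non-control probe sets had medians of -0.96 for deiminated and -0.90 for non-deiminated. The H2A.Z genes read above input on every bound array, while the probe sets of H1f10 and H3f3a read below it.

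H2az1 encodes H2A.Z, a variant placed at promoters, and its probe sets were bright on all arrays. 1438091_a_at read 5329 and 4405 with deiminated protein, 3472 and 7677 with non-deiminated protein and 2346 in input. The difference was 1.05 ± 0.53 log2 for deiminated (limma adjusted p = 0.113) and 1.14 ± 0.53 for non-deiminated (limma adjusted p = 0.0885), so it was not called. 1438092_x_at read 4478 and 4131 with deiminated protein, 2909 and 6946 with non-deiminated protein and 1737 in input. It was not called for deiminated (1.31 log2, limma adjusted p = 0.0538) and was called higher for non-deiminated (1.37 log2, limma adjusted p = 0.0458). Under quantile normalisation the 4 differences were 0.10 to 0.22 and none was called. The call was also lost without the second non-deiminated array (0.74 log2, limma adjusted p = 0.139).

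H2az2, formerly H2afv, encodes the second form of H2A.Z. 1428029_a_at read 431 and 374 with deiminated protein, 366 and 434 with non-deiminated protein and 166 in input, and was called higher by 1.26 ± 0.39 log2 for deiminated (limma adjusted p = 0.0175) and 1.25 ± 0.39 for non-deiminated (limma adjusted p = 0.0189). The call for deiminated weakened in 4 of the alternative settings and was lost without the first deiminated array. The call for non-deiminated weakened in 2. 1436596_at read 259 and 212 with deiminated protein, 343 and 441 with non-deiminated protein and 57.5 in input. It was called higher by 1.95 ± 0.43 log2 for deiminated (limma adjusted p = 0.00300) and 2.67 ± 0.43 for non-deiminated (limma adjusted p = 0.000394). Both probe sets of the gene thus stood above input on all 4 bound arrays.

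H2aj encodes H2A.J, an H2A form of mammals, and its 3 probe sets disagreed. 1424771_at was bright, with 2070.4 and 1572 with deiminated protein, 1031 and 2041 with non-deiminated protein and 4704 in input, and was called lower by -1.38 ± 0.47 log2 for deiminated (limma adjusted p = 0.0261) and -1.69 ± 0.47 for non-deiminated (limma adjusted p = 0.0106). Median centring put it at 0.11 log2 for deiminated, above input and not called. 1440252_at went the other way, with 192 and 306 with deiminated protein, 147 and 204 with non-deiminated protein and 23.2 in input, and was called higher by 3.17 ± 0.51 log2 for deiminated (limma adjusted p = 0.000384) and 2.70 ± 0.51 for non-deiminated (limma adjusted p = 0.00125). 1424772_at had 3.63 and 54.8 with deiminated protein, 28.7 and 78.4 with non-deiminated protein and 261 in input. It was called lower for deiminated (-3.63 ± 1.05 log2, limma adjusted p = 0.0129) and not for non-deiminated (-2.35 ± 1.05 log2, limma adjusted p = 0.0773).

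H1f10 encodes H1X, the linker histone of a single gene. It read 106 and 63.8 with deiminated protein, 86.0 and 115 with non-deiminated protein and 252 in input. It was called lower for deiminated by -1.57 ± 0.54 log2 (limma adjusted p = 0.0273) and not for non-deiminated (-1.31 log2, limma adjusted p = 0.0576). It was not called under quantile normalisation or median centring.

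H3f3a and H3f3b both encode H3.3, the replacement form of H3. The H3f3a probe set, 1442087_at, read 28.8 and 50.4 with deiminated protein, 41.6 and 53.4 with non-deiminated protein and 239 in input. It was called lower by -2.52 ± 0.66 log2 for deiminated (limma adjusted p = 0.00801) and -2.25 ± 0.66 for non-deiminated (limma adjusted p = 0.0147), and was not called under median centring. The H3f3b probe set read 3.78 and 21.6 with deiminated protein, 13.0 and 5.28 with non-deiminated protein and 9.04 in input, and was too dim to be tested.

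H2ax encodes H2A.X, which is phosphorylated at DNA breaks, and its gene gives both a stem-loop and a polyadenylated transcript. Its signal was nearly level, with 363 and 351 with deiminated protein, 312 and 357 with non-deiminated protein and 304 in input. The difference from input was 0.23 ± 0.38 log2 for deiminated (limma adjusted p = 0.63) and 0.14 ± 0.38 for non-deiminated (limma adjusted p = 0.78). Under median centring these became 1.72 for deiminated and 1.55 for non-deiminated, and both were called.

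**Figure D2:**
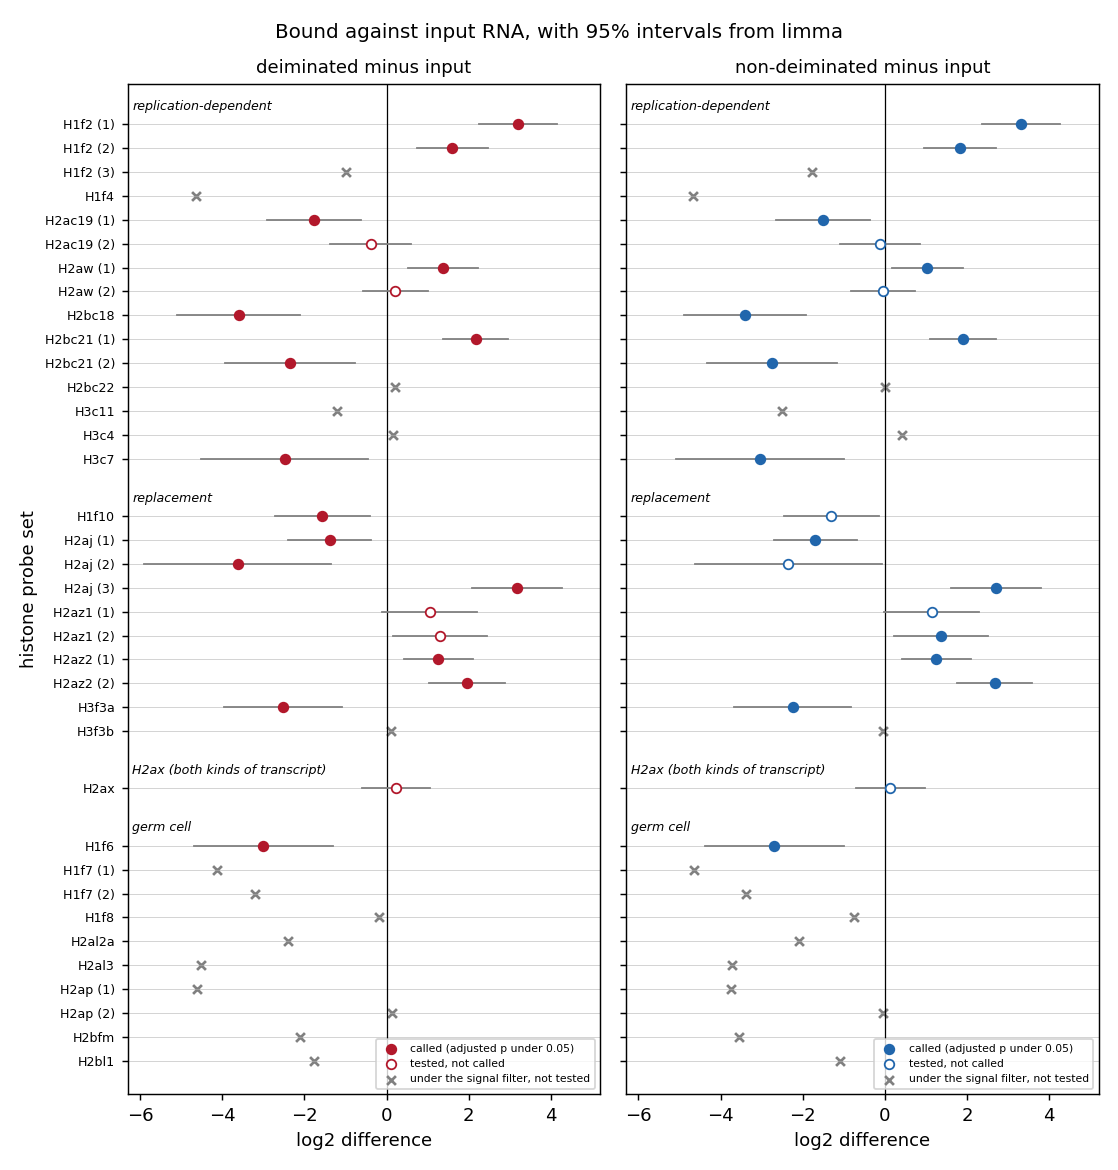
Difference from input on the log2 scale for the 36 histone probe sets, deiminated on the left and non-deiminated on the right, with limma 95% intervals for the 21 that were tested. Filled points are called, open points tested and not called, crosses were under the filter. Replication-dependent and replacement genes both have called points on either side of 0, from -3.63 (H2aj 1424772_at) to 3.20 (H1f2) for deiminated. The called points below 0 also lie below the median of all tested probe sets, which is -0.21 for deiminated and -0.19 for non-deiminated.

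The germ cell histones serve in spermatogenesis or in the oocyte. H1f6, the testis linker histone H1t, was their 1 tested probe set, with 17.1 and 30.6 with deiminated protein, 24.5 and 35.6 with non-deiminated protein and 213 in input. It was called lower by -3.00 ± 0.78 log2 for deiminated (limma adjusted p = 0.00761) and -2.69 ± 0.78 for non-deiminated (limma adjusted p = 0.0136), and was not called under median centring. Its mean log2 signal was 4.77 with deiminated and 5.08 with non-deiminated protein against 7.77 in input. Input thus helped H1f6 past the filter, and its lower calls may be partly a product of that selection. The other 9 were under the filter and not tested.

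H1f7, the linker histone of spermatids, had a probe set at 5.82 and 19.4 with deiminated protein, 10.9 and 3.44 with non-deiminated protein and 266 in input, and another at 2.23 to 7.10 on the bound arrays and 74.0 in input. H2al3, an H2A-like gene, read 13.0 and 2.60 with deiminated protein, 3.70 and 39.9 with non-deiminated protein and 242 in input. A probe set of H2ap read 0.640 and 3.86 with deiminated protein, 3.19 and 13.2 with non-deiminated protein and 148 in input, and the other read 0.579 to 12.5 on the bound arrays and 4.22 in input. In all, 8 of the 10 germ cell probe sets had every bound array below input and 0 had every bound array above it. Of all non-control probe sets, 54.7% had every bound array below input and 25.2% above it. The median difference of the germ cell probe sets was -2.70 log2 for deiminated and -3.04 log2 for non-deiminated. Over all non-control probe sets it was -0.96 for deiminated and -0.90 for non-deiminated.

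Among the dimmer ones, H1f8, the oocyte linker histone, had 0.997 and 19.6 with deiminated protein, 1.36 and 5.87 with non-deiminated protein and 8.45 in input. H2bfm had 1.27 and 26.3 with deiminated protein, 0.419 and 0.742 with non-deiminated protein and 51.4 in input. H2al2a, whose product acts in spermatids when histones give way to protamines, had 2.83 to 6.75 on the bound arrays and 35.7 in input. H2bl1 had 2.44 to 20.7 on the bound arrays and 23.4 in input. The bound groups overlapped for H1f8, H2al2a and H2bl1, and both H2bfm values with deiminated protein were above both with non-deiminated protein.

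9 of the 25 genes had more than 1 probe set. In deiminated against input all probe sets of a gene had the same sign in 5 of these 9 genes, where 43.0% of 9010 genes with several probe sets did. In non-deiminated against input the count was also 5 of 9, where 42.6% did. The differences of H2aj spanned 6.80 log2 in deiminated against input and those of H2bc21 spanned 4.51. H2az1, by contrast, spanned 0.26. The suffixes of the array's maker mark some of these probe sets as matching several transcripts, with s for transcripts of several genes and x for probes that may pair elsewhere. Where each probe set lies on its transcript was not analysed here.

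**Figure D3:**
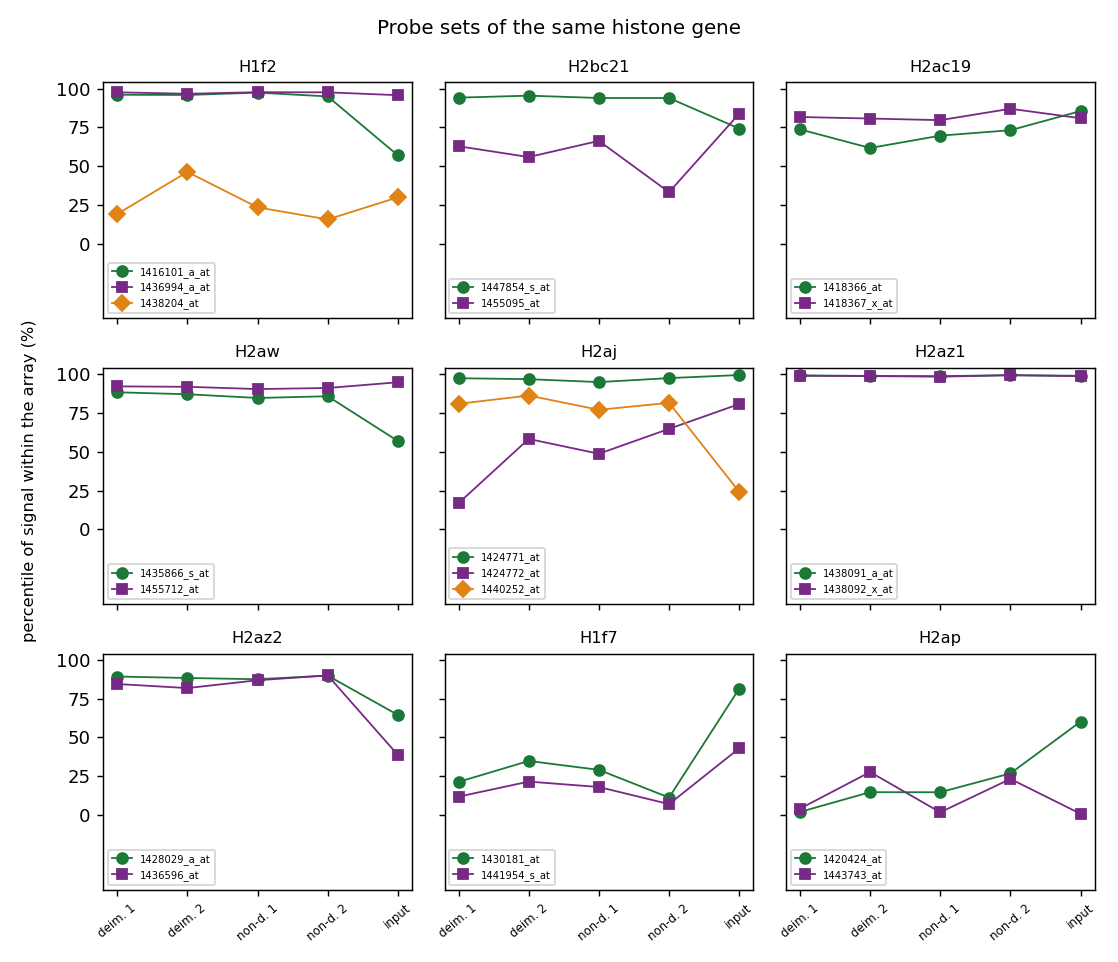
Percentile of each probe set within its own array, for the 9 histone genes with 2 or 3 probe sets, across the 2 deiminated, 2 non-deiminated and 1 input array. Lines join 1 probe set. The H2bc21 probe sets lie apart on the bound arrays and closer in input. At least 1 probe set each of H1f2, H2aj, H2aw, H2az2, H2bc21 and H2ap stands lower in input than on every bound array. Those of H2az1 stay together near the top.

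The replication-dependent genes had the lower median against input, in a comparison whose sign turned with the probe sets taken. Their median minus that of the replacement genes was -0.96 log2 for deiminated against input, with an SD of 0.26 between the 2 arrays. For non-deiminated against input it was -0.66 log2, with an SD of 0.36. Array by array it was -0.58 and -0.94 for deiminated, and -1.01 and -0.50 for non-deiminated. With 1 probe set per gene, the one with the highest mean signal, it turned to 0.52 for deiminated and 0.60 for non-deiminated. Under quantile normalisation it was -0.10 for deiminated. No test was made of these medians.

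No histone probe set differed past the threshold between the deiminated and the non-deiminated protein. 0 of the 21 tested probe sets were called by limma for deiminated against non-deiminated, 0 had an unadjusted p under 0.05, and every adjusted p was 0.9999. Over all tested probe sets 0.0% were called, and 1.32% had an unadjusted p under 0.05. The groups did not overlap in 4 of the 21 histone probe sets, where 24.1% of all tested probe sets did not overlap. With 2 arrays against 2, the 95% interval of the difference lay within 2-fold in either direction for 7 of 21 histone probe sets (33.3%, against 24.2% of all tested) and within 4-fold for 19 (90.5%, against 83.9%). The precision thus left changes of 2-fold unresolved for most members.

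The largest of these differences by moderated t was in H2az2. Its probe set 1436596_at, whose values are given above, was lower on both deiminated than on both non-deiminated arrays, at -0.72 ± 0.35 log2 (95% interval -1.47 to 0.03, limma unadjusted p = 0.0598, adjusted p = 0.9999). The other probe set of H2az2, at 431 and 374 with deiminated protein and 366 and 434 with non-deiminated protein, overlapped between the groups. The next 3 on the lower side were H2aj 1424772_at at -1.28 ± 0.86, H2ac19 1418367_x_at at -0.26 ± 0.37 and H1f2 1436994_a_at at -0.23 ± 0.33, and their groups overlapped. On the higher side stood H2aj 1440252_at at 0.47 ± 0.41, H2aw 1435866_s_at at 0.34 ± 0.33, H2bc21 1447854_s_at at 0.27 ± 0.30 and H2aw 1455712_at at 0.25 ± 0.30. In H2aw and H2bc21 both deiminated arrays were above both non-deiminated ones.

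The median difference over the 15 replication-dependent probe sets was 0.21 log2 and over the 10 replacement probe sets -0.08 log2, where all non-control probe sets had a median of -0.03. The gap of 0.29 log2 between the medians compared with an SD of 0.24 between arrays. It was -0.0017 log2 without the first deiminated array and 0.62 without the first non-deiminated array.

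**Figure D4:**
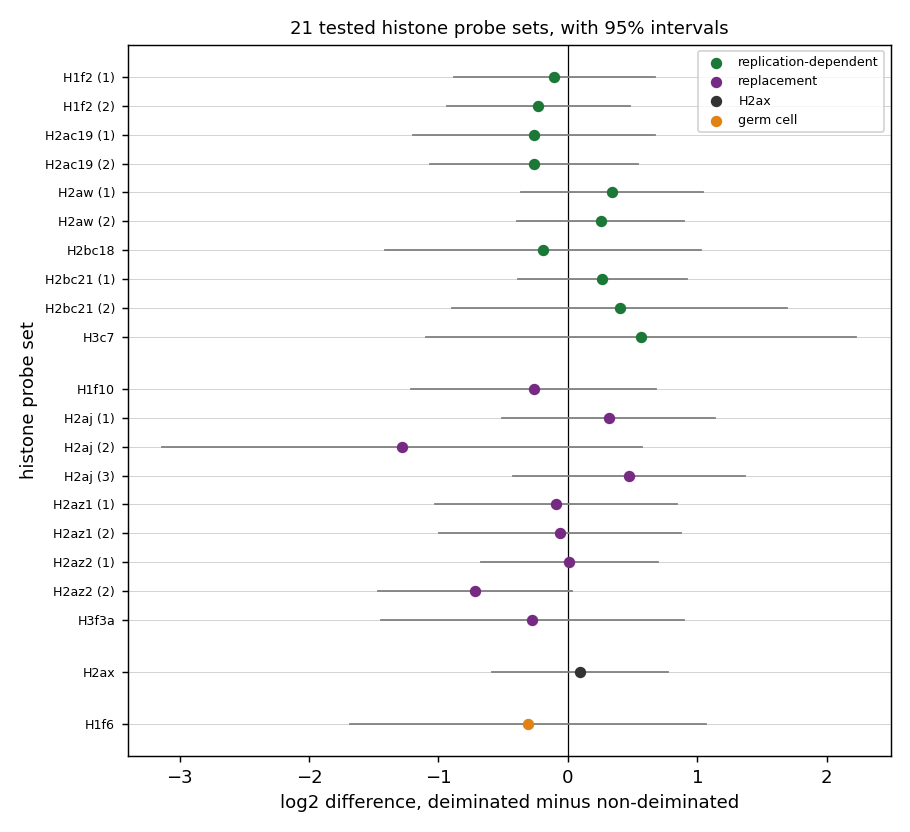
Deiminated minus non-deiminated difference on the log2 scale for the 21 tested histone probe sets, with limma 95% intervals. Every interval covers 0, and 19 of the 21 lie within 4-fold in both directions.

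The histone probe sets left out by the rule, because their annotation held several genes, gave a fuller view of the families. There were 27, of which 18 were replication-dependent, 7 replacement, 1 germ cell and 1 shared by H2aw and Trim17. Of the 10 tested replication-dependent ones, 2 were called higher for deiminated against input, 1 for non-deiminated against input, and none lower. All 7 replacement ones were tested, and 4 were called higher in each comparison, with none lower. Over all tested probe sets 24.9% were called higher and 26.6% lower for deiminated, and 24.7% and 25.7% for non-deiminated. These signals cannot be split between the genes that share them.

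5 of the shared replacement probe sets were for H3.3, and 3 were called higher in each comparison. 1420376_a_at, shared by H3f3a, H3f3b, H3f3c and 3 predicted genes, read 1701 and 1789 with deiminated protein, 1969 and 1249.9 with non-deiminated protein and 279 in input, at 2.63 ± 0.40 log2 for deiminated and 2.47 ± 0.40 for non-deiminated. That is the other direction from the H3f3a probe set above. 1416415_a_at, shared by H2az1 and the predicted gene Gm8203, read 2819 and 1483 with deiminated protein, 2831 and 1678 with non-deiminated protein and 31.4 in input, at 5.85 ± 0.46 log2 for deiminated. Its partner 1456032_x_at, with the same annotation, read 2642 and 1869 with deiminated protein, 1879 and 4128 with non-deiminated protein and 1394 in input, and was not called.

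Of the shared replication-dependent probe sets, 1418072_at for the H2B genes H2bc4, H2bc6 and H2bc8 read 2293 and 1521 with deiminated protein, 1426 and 1764 with non-deiminated protein and 202 in input. It was called higher, by 3.18 ± 0.40 log2 for deiminated and 2.95 ± 0.40 for non-deiminated. Of 5 H4 probe sets 2 were tested, and of 5 shared H3 probe sets also 2, and none of these was called. Over all 5, tested or not, the median difference for deiminated was -0.78 log2 for H4 and -2.24 log2 for H3. One for H3c2 and H3c10 read 3.59 and 5.74 with deiminated protein, 3.43 and 2.15 with non-deiminated protein and 279 in input, and was under the filter.

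Of 26 tested genes of histone pre-mRNA 3′ end processing and decay, 13 were called higher and 1 lower for deiminated against input, with a median of 1.23 log2. For non-deiminated against input the counts were 13 and 1 and the median 1.08. Over all tested probe sets, not 1 per gene as here, 24.9% were called higher and 26.6% lower for deiminated, and no test of the difference was made for any list. Slbp, whose product holds the stem-loop, read 271 and 174 with deiminated protein, 465 and 260.5 with non-deiminated protein and 80.0 in input, at 1.39 ± 0.48 log2 for deiminated (limma adjusted p = 0.0287) and 2.06 ± 0.48 for non-deiminated (limma adjusted p = 0.0046). Npat, the factor that switches on histone transcription at S phase, stood at 2.98 ± 0.47 for deiminated and 3.38 ± 0.47 for non-deiminated. Lsm1, of the ring that marks histone mRNA for decay, stood at 3.48 ± 0.50 for deiminated and 3.59 ± 0.50 for non-deiminated, and Snrpg, an Sm protein of the U7 particle that cuts histone pre-mRNA, at 2.68 for deiminated and 2.66 for non-deiminated. Fip1l1, of the cleavage and polyadenylation machinery, was at 2.41 for deiminated and 2.14 for non-deiminated. Dcp2, a decapping enzyme, was at 2.69 for deiminated and 2.47 for non-deiminated. Wdr33, a reader of the poly(A) signal, was the 1 gene called lower, at -1.16 for deiminated and -1.22 for non-deiminated.

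Histone chaperones and exchange factors, which carry histones to and from DNA, had 14 of 31 tested genes called higher and 5 lower for deiminated against input, and 15 and 4 for non-deiminated. Their medians were 1.10 log2 for deiminated and 1.20 log2 for non-deiminated. Over all tested probe sets 24.9% were called higher and 26.6% lower for deiminated, with a median of -0.21. For non-deiminated these were 24.7%, 25.7% and -0.19. The list took 1 probe set per gene, the brightest, and the difference was not tested. Nap1l4, a carrier of H2A and H2B, stood at 6.31 ± 0.38 for deiminated and 6.38 ± 0.38 for non-deiminated, from signals of 1443 and 1116 with deiminated protein, 1384 and 1278 with non-deiminated protein and 11.8 in input. Atrx, which places H3.3 in heterochromatin, was at 3.83 for deiminated and 3.31 for non-deiminated. Npm1, a nucleolar chaperone, was at 2.88 for deiminated and 2.69 for non-deiminated. Nap1l5, of the same family as Nap1l4, was at 2.64 for deiminated and 2.52 for non-deiminated, and Supt6, a chaperone of transcription elongation, at 2.34 for deiminated and 2.75 for non-deiminated. Lower was Chaf1b, of the complex that loads histones behind the replication fork, at -3.16 for deiminated and -3.45 for non-deiminated. Chaf1b read 16.1 and 31.7 with deiminated protein, 8.72 and 34.0 with non-deiminated protein and 238 in input. Its input signal lifted it past the filter, which ties its lower calls to that selection. Ruvbl1, a helicase of remodelling complexes, was at -1.65 for deiminated and -1.68 for non-deiminated, and Ubn2, a partner of the H3.3 chaperone Hira, at -1.71 for deiminated and -2.00 for non-deiminated. Nasp, a carrier of H1 and H3, was called lower at -2.50 for deiminated and was at -1.47 for non-deiminated, not called (limma adjusted p = 0.133). Asf1b, a carrier of H3 and H4, was lower at -1.81 for deiminated and -1.94 for non-deiminated.

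The replication-dependent histones are made in the S phase of dividing cells. Of 22 tested genes of cell proliferation, 6 were called higher and 7 lower for deiminated against input, with 6 and 8 for non-deiminated, and the median was -0.61 log2 in each. These counts were near the shares over all tested probe sets, 24.9% higher and 26.6% lower for deiminated and 24.7% and 25.7% for non-deiminated. Top2a, a topoisomerase, was at -4.17 ± 0.80 for deiminated and -3.94 ± 0.80 for non-deiminated, and Mki67, a marker of cycling cells, at -3.13 ± 0.70 for deiminated and -2.98 ± 0.70 for non-deiminated. E2f1, a switch of S phase genes, was at -2.58 for deiminated and -2.82 for non-deiminated. Cdk1 was at -3.70 for deiminated and -2.41 for non-deiminated, and Ccna2 at -2.89 for deiminated and -3.23 for non-deiminated. Cdk1 read 6.55 to 47.7 on the bound arrays and 214 in input, and Ccna2 11.7 to 34.7 and 229. Their input signal lifted Cdk1 and Ccna2 past the filter, which ties their lower calls to that selection. The replicative helicase genes Mcm6, Mcm7 and Mcm4 were called higher, at 4.67, 3.87 and 2.08 for deiminated and 4.58, 3.98 and 1.90 for non-deiminated. The licensing factor Cdt1 was also higher, at 3.67 for deiminated and 3.06 for non-deiminated. Pcna, the sliding clamp of the polymerase, was not called, at 0.66 ± 0.47 for deiminated and 1.10 ± 0.47 for non-deiminated.

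Other genes with an intronless coding region gave a set like the clustered histones in gene structure but with poly(A) tails. Of 38 tested, 10 were called higher and 11 lower for deiminated against input, and 9 and 11 for non-deiminated, with medians of -0.20 log2 for deiminated and -0.15 log2 for non-deiminated. These counts too were near the shares over all tested probe sets just given. The heat shock gene Hspa1a, the neuronal factor Neurod6 and the receptors Gpr6 and Cnr1 were higher, at 4.47, 4.43, 3.83 and 3.27 for deiminated and 4.58, 4.85, 4.11 and 3.10 for non-deiminated. The transcription factors Jund, Pou3f2 and Neurod2 were lower, at -3.42, -2.99 and -1.60 for deiminated and -3.23, -3.35 and -1.83 for non-deiminated. Gpr12, a receptor, was at -2.11 for deiminated and -1.78 for non-deiminated, and the transcription factor Sox1 at -1.62 for deiminated and -2.04 for non-deiminated. In deiminated against non-deiminated, limma called 0 genes of these 4 lists.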

How the data were processed

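RNA from mouse brain was measured on 5 arrays (2 deiminated, 2 non-deiminated, 1 input). The deposited table holds the authors' signal intensities on a linear scale, 1 per probe set, and MAS5 is the tool that the submitters' processing notes name. The sources used here do not give its version. The mean after trimming 2% at each end was 150 on each array, so the authors had scaled the arrays alike, and no further scaling was applied. 4.18, the overall median of 41.8 divided by 10, was added before log2. The filter took the mean log2 signal over the 5 arrays, input included. Of the 45037 probe sets that are no controls, those that reached the 40th percentile were tested, 27022 in all. Of these 45037, 34945 had 1 gene symbol, 932 several and 9160 none. All 36 member identifiers matched the RefSeq gene table (GRCm38.p6), and 0 symbols changed. 27 histone probe sets annotated to several genes were described apart.

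limma 3.58.1 in R 4.3.3 fitted the means of the 3 groups with lmFit and eBayes with a trend, with 2 residual and 10.91 prior degrees of freedom. Input, a single array, was given the scatter of the bound arrays. p-values were adjusted by Benjamini-Hochberg over all tested probe sets with a threshold of 0.05, and errors after ± are limma standard errors. The fit was checked on simulated data with equal scatter on input and bound arrays and with no shift of whole arrays. The check thus does not bear on these points. Python 3.11.15 computed medians, percentiles within an array and motif matches. The number of arrays limits the precision.

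Named were every replacement and germ cell gene among the members, H2ax, the called replication-dependent probe sets and the 4 largest moderated t per direction between the bound groups. Up to 4 called genes per direction of each pathway list were also named, and there the brightest probe set stood for a gene. The members, classes, lists and rules were chosen with earlier results of these data known. Alternatives covered the pseudocount (1.05 and 16.7), the filter, the scaling, the trend, array weights, a block for the protein name in the titles, the bound arrays alone, leaving out each bound array, 1 probe set per gene and, added after the data were seen, the shared probe sets.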

Additional observations from a re-analysis of the deposited data

Results flagged for a closer look

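The probe set 1455712_at of H2aw read 639 and 580.2 with deiminated protein, 514 and 507 with non-deiminated protein and 527 in input. Its difference from input was thus positive on both deiminated arrays (0.21 ± 0.37 log2 in the fit) and negative on both non-deiminated arrays (-0.05 ± 0.37 log2), which is why it stands here. The difference between the bound groups was tested and did not pass, at 0.25 ± 0.30 log2 (limma adjusted p = 0.9999).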

How the results depend on the processing

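Scaling to the hybridisation controls changed most. It left 0 histone probe sets called against input for deiminated and 0 for non-deiminated (limma), and 0 over all probe sets. It moved all probe sets, to a median over those tested of 4.31 for deiminated and 4.37 for non-deiminated, and so put these above 0, not called, in deiminated against input: H2ac19 1418366_at 3.31, 1418367_x_at 4.66, H2aj 1424771_at 4.03, 1424772_at 1.04, H2bc18 1.50, H3c7 2.22, H1f10 3.45, H3f3a 2.42, H1f6 1.86 and H2bc21 1455095_at 2.70. In non-deiminated against input they were H2ac19 1418366_at 3.60, 1418367_x_at 4.95, H2aj 1424771_at 3.75, 1424772_at 2.66, H2bc18 1.73, H3c7 1.59, H1f10 3.74, H3f3a 2.76, H1f6 2.25, H2bc21 1455095_at 2.37 and H2aw 1455712_at 5.21.

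Median centring raised the median over all tested probe sets to 1.29 for deiminated and 1.23 for non-deiminated, which favoured higher calls throughout. Median centring called 12 in each comparison, 11 higher and 1 lower, against 7 higher and 9 lower for deiminated and 8 and 7 for non-deiminated without it. It turned H2ac19 1418367_x_at to 1.11 and 1.30, H2aj 1424771_at to 0.11 for deiminated, H1f10 to 0.11 for non-deiminated and H2aw 1455712_at to 1.37 for non-deiminated, the last of these called (limma adjusted p = 0.0465). Quantile normalisation called 12 and 13 and turned H2ac19 1418367_x_at to 0.030 and 0.27 and H2aw 1455712_at to -0.62 for deiminated. The 7 probe sets called higher for deiminated kept their sign under all 3 scalings.

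Leaving out each bound array in turn called 10 to 18 for deiminated against input (10 without deiminated replicate 1), 14 to 16 for non-deiminated against input and 0 between the bound groups. 4 uncalled values changed sign: H2ac19 1418367_x_at in non-deiminated against input ranged from -0.54 to 0.30 (0.30 without non-deiminated replicate 1). Between the bound groups H2aj 1424772_at ranged from -2.74 to 0.18 (0.18 without deiminated replicate 1), H2ac19 1418367_x_at from -0.68 to 0.15 (0.15 without non-deiminated replicate 2) and H1f2 1436994_a_at from -0.51 to 0.049 (0.049 without deiminated replicate 2).

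The median of replication-dependent minus replacement histones for deiminated against input was -0.36 with the stricter filter, -0.10 under quantile normalisation, -1.93 under scaling to the hybridisation controls, 0.52 with 1 probe set per gene and -1.83 with the shared probe sets. Leaving out an array gave -0.96 to -0.58. For non-deiminated against input it was -1.22 with the filter, -1.47 under scaling to the hybridisation controls, 0.60 with 1 probe set per gene and -1.58 with the shared probe sets, and -1.01 to -0.50 without an array. Between the bound groups it was -0.0017 to 0.62 without an array. The pseudocounts, the trend, array weights and the block kept every direction and each count within 1.5 times, with 12 and 10 called without the trend. The labels give no shared replicate numbers. The protein name in the titles joins 1 array of each bound group, and the fit with it as a block called 15 for deiminated and 14 for non-deiminated against input and 0 between the bound groups. The cause of these changes was not tested.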
